A study of Mus musculus with 47 samples.

Results

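The germ-free effect, the change in a gene's RNA between mice raised without microorganisms and mice with a normal gut flora, was compared between duodenum and ileum. All 47 of the 47 libraries entered: 12 of conventionally raised (convR) duodenum, 12 of germ-free (GF) duodenum, 12 of convR ileum and 11 of GF ileum. The mice were male C57BL/6j animals of 15 to 16 weeks, and the labels name no altered allele in either group. Each group had 2 libraries at each of 6 zeitgeber times (ZT 2, 6, 10, 14, 18 and 22, counted in hours from lights-on), except GF ileum at ZT 2 with 1 library. Total RNA was depleted of ribosomal RNA and sequenced, and the reads over the exons of each gene were counted. The features of interest among the 19000 genes tested were the genes whose germ-free effect ran in opposite directions in the 2 tissues, and those that responded in 1 tissue while expressed in both.

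The duodenum is the first part of the small intestine, where iron and folate are taken up, and it holds few bacteria. The ileum is the last part, where bile acids are reabsorbed and where bacteria are much more numerous. In conventional mice the epithelium of both parts makes antimicrobial proteins, exports immunoglobulin A and harbours intraepithelial T cells, whose interferon gamma induces genes of antigen presentation. Germ-free mice lack the microbial stimulus for much of this, and they also differ from conventional mice in bile acids and lipid handling.

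Library totals were 22546800 to 41911085 counts, and the 4 groups were sequenced to like depth. Levels are given as counts-per-million (CPM) of the library total. Each tissue carried its markers: Fabp6, the ileal bile acid binding protein, was at 0.21 to 2.41 CPM in duodenum and at 206 to 4480 CPM in ileum. Pdx1, a duodenal transcription factor, was at 9.73 to 114 CPM in duodenum and at 0 to 0.208 CPM in ileum. Sct, listed as a duodenal marker, was not higher there (median 16.2 CPM against 20.8 CPM in ileum). In all, 11 libraries stood apart: 6 of convR duodenum and 3 of GF duodenum, for pancreas or stomach transcripts or an unusual scaling factor, and 1 of each ileum group, for low Fabp6. For most results, counts are given with and without these libraries. The labels do not say that the 2 libraries of a group and time came from separate mice, so p-values measure the spread between these libraries.

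The germ-free state changed a large share of genes in each tissue, and those called in both mostly had the same sign. In duodenum 4353 genes were higher in GF (22.9% of those tested) and 4796 lower (25.2%), and in ileum 3400 were higher (17.9%) and 3911 lower (20.6%), at an adjusted p below 5%. Both tissues called 5134 genes, which is 56.1% of the duodenal and 70.2% of the ileal calls, and 4931 of them had the same sign. A call in 1 tissue alone did not show a difference between the tissues. Of 4015 genes called in duodenum and not in ileum, the difference passed its own test for 818. Of 2177 called in ileum and not in duodenum, it passed for 576. Without the libraries that stood apart, 3257 genes were higher and 3594 lower in GF duodenum. In GF ileum 4087 were then higher and 3608 lower, so ileum had more calls than duodenum.

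The germ-free effect differed between the tissues for 2331 genes (12.3%), with 870 more positive in ileum (4.58%) and 1461 more negative in ileum (7.69%). Differences of at least 1 log2 were mostly of the second kind, 332 against 88. The balance of signs depended on the scaling: with library size alone, which shifted the median of all genes from -0.01 to -0.14 in duodenum and from 0.01 to -0.05 in ileum, 1214 differences were more positive and 968 more negative in ileum, and the duodenal calls became 2344 higher and 7404 lower and the ileal calls 2060 higher and 4747 lower. Without the libraries that stood apart, 1541 genes differed, 749 more positive and 792 more negative in ileum.

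**Figure D1:**
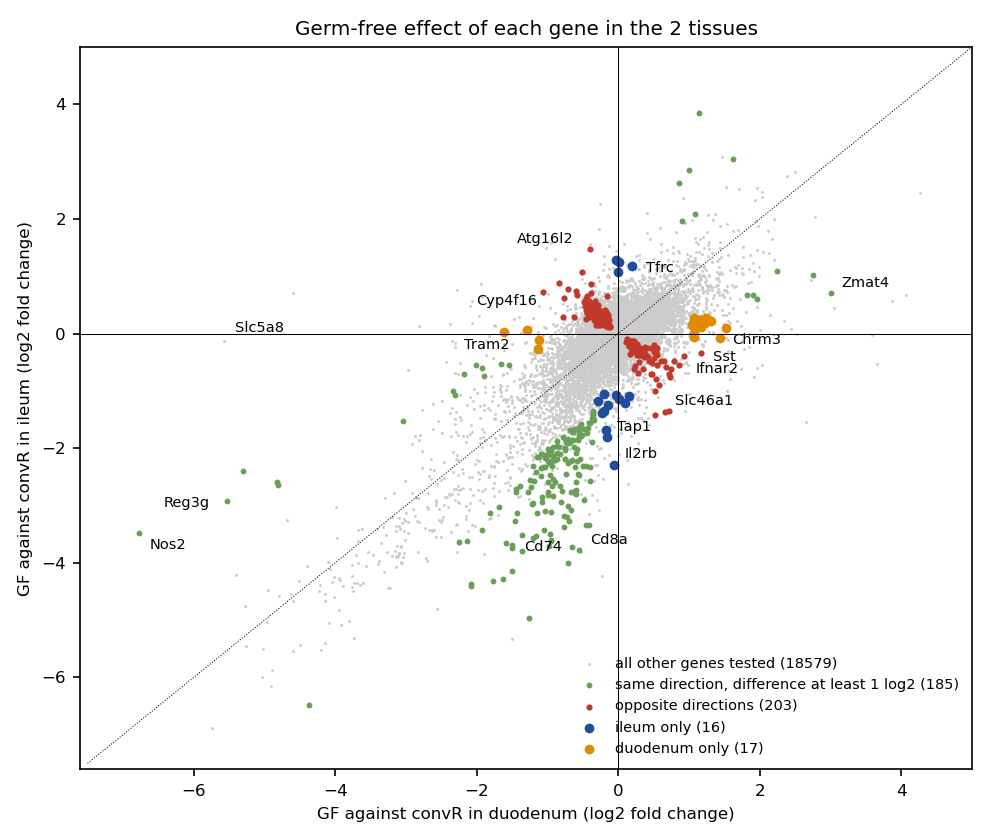
Each point is 1 of the 19000 genes tested. The x axis is the log2 fold change of GF against convR in duodenum and the y axis the same in ileum, and the dotted line marks equal effects. The 203 genes with opposite effects lie close to the origin in the upper left and lower right, while most of the 185 genes with a same-direction difference of at least 1 log2 lie below the line, with larger losses in ileum.

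Opposite effects were called for 203 genes (1.07% of those tested), which passed the threshold in both tissues with opposite signs and for the difference. They made up 3.95% of the 5134 genes called in both tissues. Most were small, with a median of 0.235 log2 for the smaller of the 2 effects, and 19 genes reached 0.5 log2 in both tissues. In 73 genes the level was higher in GF duodenum and lower in GF ileum, and in 130 the reverse held. Leaving out the libraries that stood apart, 36 and 109 genes were called. With at most 1 library per group and time the count fell to 83 without replicate 1 and to 33 without replicate 2.

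Among genes that rose in GF duodenum and fell in GF ileum, Slc46a1 had the largest difference of the named ones. Slc46a1 encodes the proton-coupled folate transporter of the proximal intestine (mm10 chr11:78465697-78472059, plus strand). Its lowest, median and highest levels were 103, 266 and 404 CPM in convR duodenum and 185, 390 and 487 CPM in GF duodenum. In ileum they were 8.22, 12.0 and 25.4 CPM in convR and 3.94, 4.70 and 7.11 CPM in GF. The duodenal groups overlapped and the ileal groups did not. The effect was 0.66 ± 0.20 (SE) log2 in duodenum (adjusted p = 0.006) and -1.36 ± 0.22 in ileum (adjusted p = 4.55e-06), a difference of -2.02 ± 0.29 (adjusted p = 7.88e-06).

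Ifnar2, a subunit of the type I interferon receptor (chr16:91372783-91405589, plus strand), was at 17.4, 21.2 and 25.8 CPM in convR duodenum and at 25.7, 35.9 and 44.0 CPM in GF duodenum. In ileum it was at 10.4, 11.2 and 13.3 CPM in convR and 6.95, 7.76 and 9.03 CPM in GF. The ileal groups were apart, and the duodenal groups met only at their edges. Ifnar2 rose by 0.79 ± 0.07 log2 in duodenum (adjusted p = 5.87e-12) and changed by -0.48 ± 0.07 in ileum (adjusted p = 1.17e-06). It had the same sign at 6 of 6 times in each tissue and kept its call in all 18 settings in which opposite effects were recomputed.

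Sst encodes somatostatin, the inhibitory peptide of D cells. Its lowest, median and highest levels were 11.2, 15.3 and 22.4 CPM in convR duodenum against 25.9, 33.4 and 39.0 CPM in GF duodenum, with no overlap. In ileum they were 8.85, 10.9 and 14.4 CPM against 6.61, 7.90 and 12.1 CPM, with overlap. The effects were 1.16 ± 0.11 log2 in duodenum (adjusted p = 7.7e-11) and -0.34 ± 0.12 in ileum (adjusted p = 0.0177). Sst kept its opposite call in 15 of 18 settings and lost it without ZT 6, ZT 10 or ZT 14. Chga, the granule protein chromogranin A, had effects of 0.51 and -0.33 (difference -0.84 ± 0.16, adjusted p = 0.000448), though this opposite call was lost without the libraries that stood apart.

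Of the 15 tested genes of the enteroendocrine list, 6 rose and 1 fell in duodenum (median 0.348), and 2 rose and 4 fell in ileum (median -0.271), ileal counts near the shares of all genes (17.9% and 20.6%). The difference was more negative in ileum for 5, against 7.69% of all genes, and more positive for none. The other 3 were Chgb, a second chromogranin (0.35 and -0.20), Tph1, which makes serotonin in enterochromaffin cells (0.65 and -0.04), and Ghrl, the ghrelin precursor (0.40 and -0.29). Their ileal values did not pass the test. The exceptions included Gcg, the precursor of glucagon-like peptides, which fell in duodenum by 0.86 on the log2 scale (adjusted p = 8.49e-05) and was at -0.23 in ileum. After the libraries that stood apart were left out, 3 rose and 1 fell in duodenum, 1 rose and 3 fell in ileum, and the difference was called in 1 gene as more positive and in 2 as more negative. In bulk tissue, fewer cells of a type and less RNA per cell cannot be told apart.

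Slc39a4, the zinc importer ZIP4, was at 108, 158 and 211 CPM in convR duodenum and at 131, 179 and 247 CPM in GF duodenum, groups that overlapped widely. Its ileal levels were 217, 260 and 329 CPM in convR and 116, 156 and 204 CPM in GF, with no overlap. The effects were 0.35 ± 0.09 log2 (adjusted p = 0.00102) and -0.61 ± 0.09 (adjusted p = 6.86e-07). Xdh, xanthine dehydrogenase, an enzyme of purine breakdown, was high in both tissues, with effects of 0.48 and -0.51. Its medians went from 1210 to 1480 CPM in duodenum and from 374 to 273 CPM in ileum, convR to GF. The opposite calls of Slc46a1, Slc39a4, H2-M2 and Xdh were lost without the libraries that stood apart.

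The remaining named genes of this direction, apart from Plin2, were expressed at low levels. H2-M2, a nonclassical MHC class I gene, had effects of 0.52 and -1.01, and Abtb2 0.86 and -0.54. Zfp385b, a zinc finger gene, had effects of 0.55 and -0.55 and, like Ifnar2, kept its call in all 18 settings. Lama1, the laminin alpha 1 chain of basement membranes, had effects of 0.61 and -0.47. Sh2d6, an adaptor gene, had 0.44 and -0.47 and kept its call in 10 of 18 settings. Plin2, a lipid droplet coat protein, had 0.25 and -0.21 and kept it in 6 of 18.

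Among genes that fell in GF duodenum and rose in GF ileum, several make or modify lipids. Cyp4f16 belongs to a cytochrome P450 family that hydroxylates fatty acids and eicosanoids (chr17:32536558-32551798, plus strand). Its lowest, median and highest levels were 106, 166 and 258 CPM in convR duodenum and 65.4, 92.0 and 117 CPM in GF duodenum, whereas ileum went from 66.2, 131 and 177 CPM to 131, 180 and 251 CPM. The groups overlapped in both tissues. The effects were -0.77 ± 0.13 log2 in duodenum (adjusted p = 4.09e-06) and 0.61 ± 0.13 in ileum (adjusted p = 0.000206), so that the order of the 2 tissues differed between convR and GF mice.

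Elovl5 and Fads2 act in the elongation and desaturation of polyunsaturated fatty acids, and Mvd makes isopentenyl pyrophosphate in cholesterol synthesis. Elovl5 was at 26.2, 29.5 and 41.5 CPM in convR duodenum against 17.7, 20.5 and 24.9 CPM in GF duodenum, without overlap. In ileum it was at 41.0, 59.6 and 76.8 CPM against 49.2, 74.5 and 96.3 CPM, with overlap. Its effects were -0.41 ± 0.08 log2 (adjusted p = 3.19e-05) and 0.34 ± 0.08 (adjusted p = 0.000552). Fads2 had effects of -0.41 and 0.28 (difference 0.69 ± 0.12, adjusted p = 4.99e-05), and Mvd -0.44 and 0.44 (difference 0.87 ± 0.17, adjusted p = 0.000654). Mvd lost its call without the libraries that stood apart.

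Atg16l2, a homologue of the autophagy gene Atg16l1 (chr7:101263034-101302251, minus strand), had the largest ileal rise of the named opposite genes. Its levels were 3.45, 4.82 and 6.13 CPM in convR duodenum and 2.69, 3.16 and 5.06 CPM in GF duodenum. In ileum they were 4.70, 7.57 and 10.6 CPM in convR and 13.999, 18.7 and 27.4 CPM in GF. The duodenal groups overlapped and the ileal ones did not. The effects were -0.40 ± 0.12 log2 (adjusted p = 0.00611) and 1.47 ± 0.12 (adjusted p = 7.38e-13), but the opposite call was lost without the libraries that stood apart, while the difference between tissues was still called.

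Eml6, a microtubule-binding protein gene, had effects of -0.44 and 0.66 and kept its call in all 18 settings. Hs3st1, a heparan sulfate sulfotransferase, had -0.34 and 0.41, Abca8b, an ABC transporter, -0.39 and 0.87, and Casq2, a calcium store protein of muscle, -0.37 and 0.35. The opposite calls of these last 3 were lost without the libraries that stood apart.

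**Figure D2:**
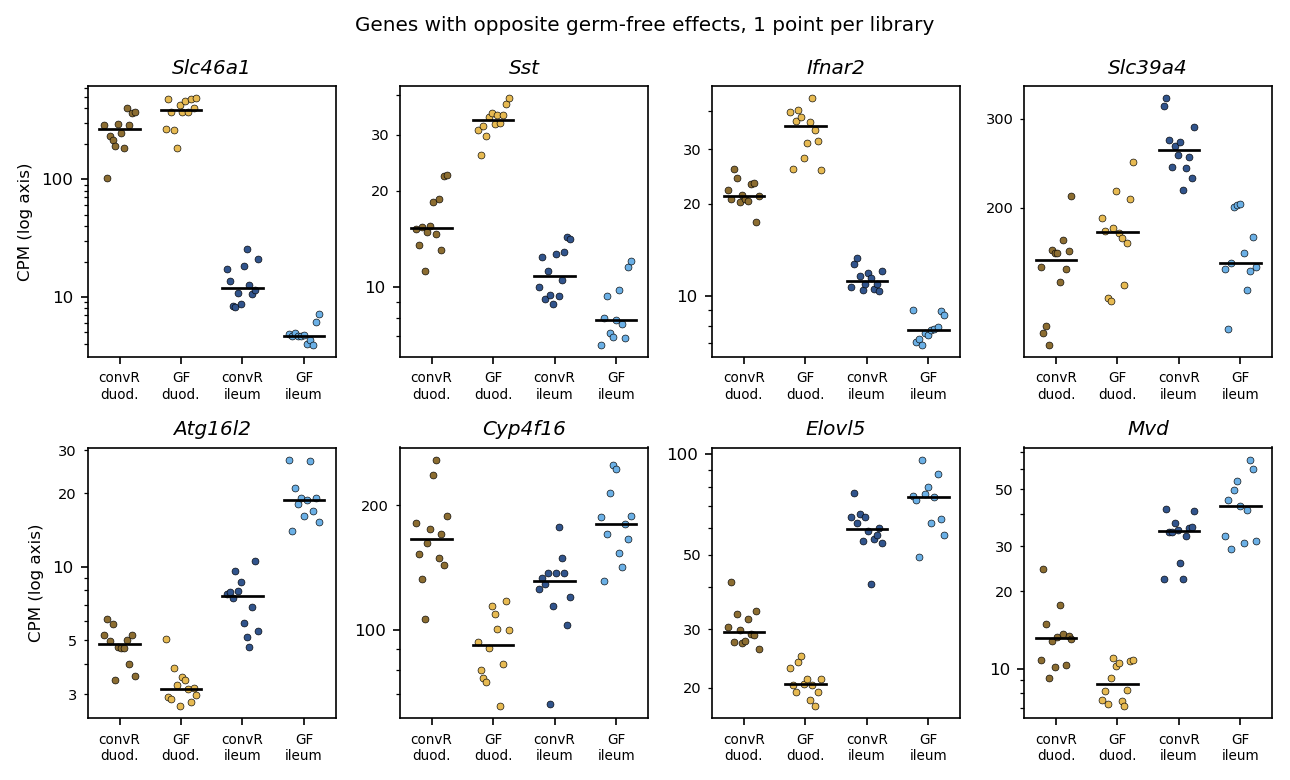
CPM (log axis) of 8 genes with opposite germ-free effects in the 47 libraries, with 1 point per library and a bar at the group median. The upper row shows genes higher in GF duodenum and lower in GF ileum, and the lower row genes with the reverse pattern. The median of Sst rises from 15.3 to 33.4 CPM in duodenum and falls from 10.9 to 7.90 CPM in ileum, and that of Atg16l2 falls from 4.82 to 3.16 CPM and rises from 7.57 to 18.7 CPM.

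The 2 directions differed in the kinds of gene they held. Of the 73 genes higher in GF duodenum and lower in GF ileum, 69 were protein coding and none a pseudogene or small nucleolar RNA. Of the 130 with the reverse pattern, 53 were protein coding, 38 pseudogenes and 34 small nucleolar RNAs, which guide the modification of ribosomal RNA. These groups, and the ribosomal proteins below, were chosen after their values were seen, so the counts are a description.

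Genes of cytosolic ribosomal proteins moved together by small amounts. Of 82, 72 fell in GF duodenum and none rose (median -0.215), against 25.2% and 22.9% of all genes. In GF ileum 12 rose, no larger a share than among all genes (17.9%), and none fell (median 0.0715). Of the 82, 11 were called opposite, and the difference was more positive in ileum for 55 and more negative for none. Over all genes the medians were -0.01 and 0.01. The ileal values depended on the scaling: with library size alone 2 rose and 1 fell (median 0.0117), while 81 fell in duodenum. With the libraries that stood apart left out, 46 fell in duodenum, 26 rose in ileum and 50 differed. Without replicate 1 the ileal median was -0.0275. Without replicate 2 the duodenal fall was not called in most genes, with 2 lower and 1 higher (median -0.0753), and none of the 82 differed. Of 338 small nucleolar RNA genes, 25 rose and 84 fell in duodenum and 79 rose and 8 fell in ileum. Of 1261 pseudogenes annotated as processed or unprocessed, 118 rose and 213 fell in duodenum and 305 rose and 72 fell in ileum. In neither group was the share that fell in duodenum above that of all genes (25.2%), while the share that rose in ileum was (17.9%). Many processed pseudogenes are near copies of ribosomal protein genes, and reads can be shared between copy and parent. The counts were not split by kind of pseudogene.

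A gene was taken to respond in 1 tissue if it passed the threshold there with at least 1 log2, the difference between tissues passed, the mean level was at least 2 CPM in each tissue, and the 95% interval of the effect in the other tissue lay within -0.5 to 0.5 log2. Of 13175 genes with 2 CPM in both tissues, 16 responded in ileum only (0.0842% of the 19000 tested) and 17 in duodenum only (0.0895%). With the looser requirement of no call in the other tissue in place of that bound, 39 and 28 genes qualified. Without the libraries that stood apart the numbers were 12 and 17.

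In ileum only, 4 genes rose and 12 fell. Tfrc, the transferrin receptor through which cells take up iron (chr16:32608920-32632794, plus strand), was at 208, 297 and 513 CPM in convR duodenum and 224, 306 and 412 CPM in GF duodenum. Its ileal levels were 209, 285 and 466 CPM in convR and 429, 631 and 812 CPM in GF. The levels of convR mice were alike in both tissues, and the GF ileum stood above nearly all other libraries. The effect was 1.18 ± 0.11 log2 in ileum (adjusted p = 1.48e-11) and 0.19 in duodenum (95% interval -0.0148 to 0.401). Tfrc left this class without the libraries that stood apart.

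H2-Q10, an MHC class I gene with close relatives in the genome, rose by 1.25 ± 0.13 in ileum (median 3.74 to 7.80 CPM, no overlap) and was at 0.02 in duodenum. Nrn1, the neuronal growth gene neuritin, rose by 1.07 ± 0.11 in ileum (median 2.35 to 4.54 CPM, no overlap) and was at 0.00 in duodenum.

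The genes that fell in ileum only were led by lymphocyte and antigen presentation genes. Il2rb is the beta chain of the interleukin 2 and 15 receptors of T and natural killer cells (chr15:78479256-78495271, minus strand). It was at 6.51, 11.6 and 14.8 CPM in convR duodenum and at 7.07, 10.2 and 12.5 CPM in GF duodenum, which overlapped almost fully. In ileum it was at 3.73, 5.65 and 10.03 CPM in convR and at 0.764, 1.31 and 2.11 CPM in GF, with no overlap. The effects were -2.29 ± 0.18 log2 in ileum (adjusted p = 2.53e-13) and -0.06 in duodenum (95% interval -0.357 to 0.243), and the class held in all 18 settings. Il18rap, a subunit of the interleukin 18 receptor, fell by 1.38 on the log2 scale in ileum and was at -0.23 in duodenum, and kept its class in 10 of 18 settings.

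Tap1 and Tap2 form the transporter that loads peptides onto MHC class I. Tap1 (chr17:34187553-34197225, plus strand) was at 68.6, 88.3 and 140 CPM in convR duodenum and 51.1, 69.1 and 114 CPM in GF duodenum. In ileum it went from 50.6, 78.3 and 160 CPM to 12.7, 23.1 and 37.6 CPM, with no overlap. Its effects were -1.81 ± 0.17 log2 in ileum (adjusted p = 1.4e-10) and -0.16 in duodenum (95% interval -0.487 to 0.169). Tap2 had -1.24 ± 0.11 and -0.15. Tap1 starts 226 bases from Psmb9, which lies on the other strand and encodes a subunit of the immunoproteasome (RefSeq starts at 34187556 and 34187330 on chromosome 17, GRCm38). Psmb9 was at -2.02 in ileum and -0.58 in duodenum, both called, so the neighbours fell together in ileum while in duodenum 1 of the 2 passed the test. Tap1 left its class without the libraries that stood apart.

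Cyp3a25, a drug- and steroid-metabolizing P450 with close copies nearby (chr5:145977194-146009618, minus strand), was at 232, 442 and 669 CPM in convR duodenum and 284, 335 and 472 CPM in GF duodenum. In ileum it went from 128, 192 and 220 CPM to 32.6, 57.4 and 71.3 CPM, with no overlap, an effect of -1.69 ± 0.13 log2 (adjusted p = 1.72e-13) against -0.17 in duodenum. Cyp3a25 too left the class without the libraries that stood apart. Myl7, a myosin light chain, was at -1.36 in ileum and -0.20 in duodenum, and it too left the class without the libraries that stood apart. The others that fell in ileum only were Ltbp2, Kynu, Ccdc88b, Slc16a3, Nfkbiz and Fes, at -1.06 to -1.20 log2. Of the 16, Kynu, an enzyme of tryptophan breakdown, and Fes, a tyrosine kinase, had small duodenal effects of -0.28 and -0.20 that passed the test while staying inside the bound.

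In duodenum only, 13 genes rose and 4 fell. Cyp2j9, a P450 that oxidizes arachidonic acid (chr4:96568429-96591578, minus strand), was at 3.14, 5.74 and 8.65 CPM in convR duodenum and at 9.76, 15.8 and 20.7 CPM in GF duodenum, with no overlap. In ileum it stayed at 2.10, 3.03 and 4.02 CPM in convR and 2.02, 3.15 and 4.38 CPM in GF. The effects were 1.53 ± 0.13 log2 in duodenum (adjusted p = 2.62e-12) and 0.09 in ileum (95% interval -0.187 to 0.364). Chrm3, the M3 muscarinic acetylcholine receptor, rose from a median of 1.81 to 4.24 CPM in duodenum, again with no overlap (1.44 ± 0.12, adjusted p = 6.31e-12). Its ileal medians were 3.07 and 2.95 CPM (-0.08, 95% interval -0.325 to 0.172).

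Pde8a, a cyclic AMP phosphodiesterase, rose by 1.305 ± 0.09 log2 in duodenum, from a median of 7.30 to 16.8 CPM with no overlap, and was at 0.21 in ileum (adjusted p = 0.0608). Npr3, the clearance receptor for natriuretic peptides, rose by 1.24 ± 0.11 and was at 0.27 in ileum (adjusted p = 0.0541, 95% interval 0.0422 to 0.492), at the edge of the bound, and kept its class in 9 of 18 settings. Rnf144b, a ubiquitin ligase, rose by 1.23 ± 0.13 and was at 0.19 in ileum. The other 8 rose by 1.04 to 1.17 log2 and included Il15, the cytokine that sustains intraepithelial T cells (1.07 ± 0.09, ileum 0.19, adjusted p = 0.0822), Naip5, a sensor of bacterial flagellin (1.17, ileum 0.11), and Slc27a2, a fatty acid transporter and acyl-CoA synthetase (1.07, ileum 0.00). Of the 17, Slc18a1 and C2cd3 had small ileal rises of 0.24 and 0.27 that passed the test inside the bound.

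The genes that fell in duodenum only were Mboat1, Tram2, Capn5 and Ocm. Tram2, a translocon protein of the endoplasmic reticulum (chr1:20996299-21079229, minus strand), was at 9.55, 19.1 and 34.4 CPM in convR duodenum and at 3.90, 7.02 and 9.18 CPM in GF duodenum, with no overlap. Its ileal levels were 12.0, 19.7 and 33.8 CPM in convR and 14.3, 19.7 and 29.5 CPM in GF, with equal medians. The effects were -1.29 ± 0.17 log2 (adjusted p = 7.73e-08) and 0.07 (95% interval -0.264 to 0.395). Capn5, a calcium-dependent protease, was at -1.14 ± 0.11 in duodenum and -0.26 in ileum (adjusted p = 0.0538), and Ocm, the calcium-binding protein oncomodulin, at -1.12 ± 0.12 and -0.12. Mboat1, a lysophospholipid acyltransferase, was at -1.61 ± 0.29 and 0.02, with an ileal interval of -0.461 to 0.5, and kept its class in 4 of 18 settings.

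**Figure D3:**
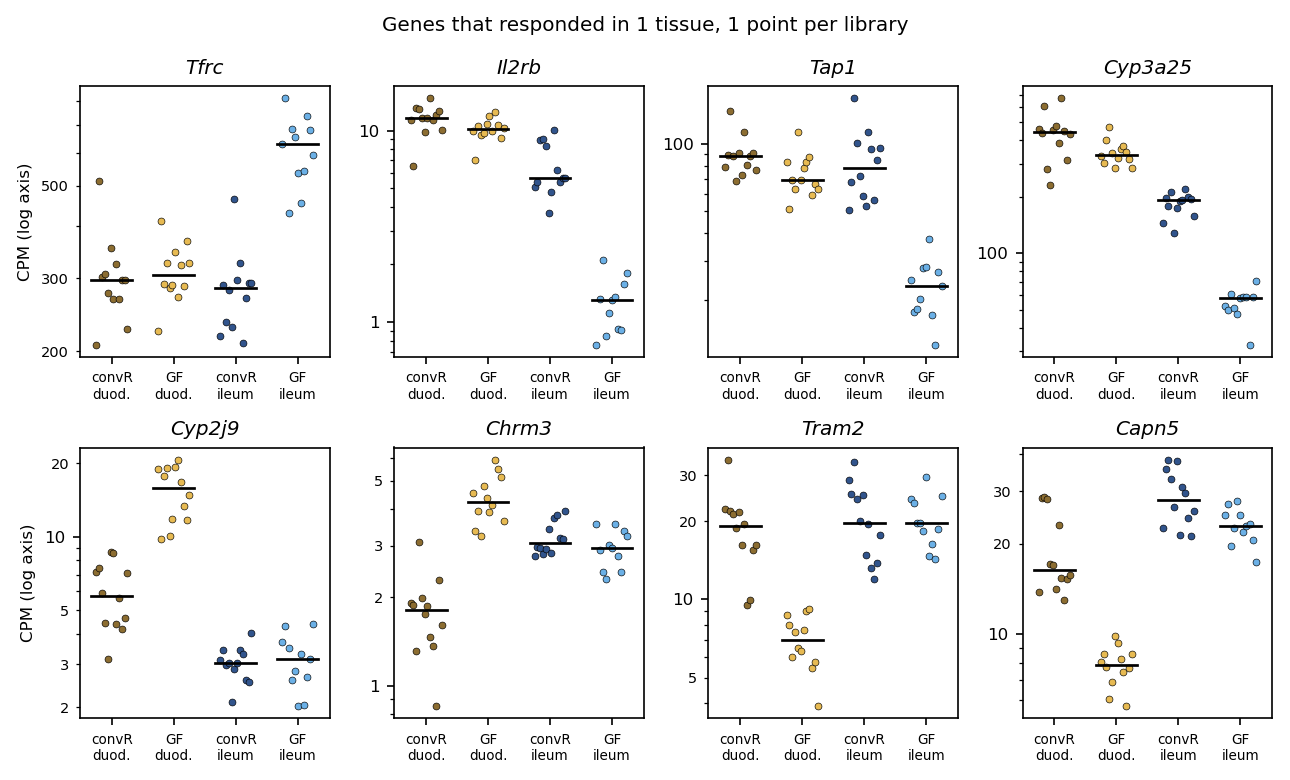
CPM (log axis) of 8 genes that responded in 1 tissue, with 1 point per library and a bar at the group median. In the upper row the ileal groups separate, apart from an overlap for Tfrc, while the duodenal groups overlap. Il2rb has duodenal medians of 11.6 and 10.2 CPM and ileal medians of 5.65 and 1.31 CPM. In the lower row the duodenal groups separate, as for Tram2 with 19.1 and 7.02 CPM against 19.7 and 19.7 CPM in ileum.

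Genes that changed in the same direction by unequal amounts were more numerous: 165 had an effect larger in ileum by at least 1 log2 (0.868% of those tested) and 20 an effect larger in duodenum (0.105%). Leaving out the libraries that stood apart, they were 91 and 23. Those larger in ileum were led by genes of intraepithelial T cells. Cd8a, the CD8 alpha chain (chr6:71373427-71379173, plus strand), was at 10.5, 21.6 and 26.5 CPM in convR duodenum and at 9.30, 13.3 and 16.2 CPM in GF duodenum, with overlap. In ileum it was at 8.44, 14.2 and 19.9 CPM in convR and 0.303, 0.900 and 1.94 CPM in GF, with none. The effects were -0.55 ± 0.19 log2 in duodenum (adjusted p = 0.0158) and -3.78 ± 0.24 in ileum (adjusted p = 5.22e-15), a difference of -3.23 ± 0.30 (adjusted p = 3.19e-09). After the libraries that stood apart were left out, this difference was still called.

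Gzma, a granzyme of cytotoxic cells, was at -0.71 and -3.998, Cd7, a surface protein of T and natural killer cells, at -0.46 and -3.35, and Ccl5, a T cell chemokine, at -0.95 and -3.61. Of the 23 T cell and intraepithelial lymphocyte genes tested, 21 fell in duodenum (median -0.771) and 23 in ileum (median -3.2), and the difference was more negative in ileum for 21. Gzmb, a second granzyme, was at -0.52 in duodenum (adjusted p = 0.104) and -3.81 in ileum, and Xcl1, a lymphocyte chemokine, at 0.13 (adjusted p = 0.621) and -2.63. The summed level of these genes had medians of 293 CPM in convR and 165 CPM in GF duodenum, and of 205 and 23.4 CPM in ileum. With the libraries that stood apart left out, 17 fell in duodenum, 23 in ileum and 19 differed.

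Genes of B and plasma cells fell in both tissues. All 16 fell in duodenum (median -2.73) and 14 in ileum (median -2.25), and 1 differed between tissues. That gene was Igha, the constant region of immunoglobulin A, at -3.05 ± 0.21 log2 in duodenum and -4.01 ± 0.23 in ileum (difference -0.96, adjusted p = 0.0194), with medians of 5850 and 635 CPM in duodenum and 2300 and 122 CPM in ileum. No gene of the list differed without the libraries that stood apart, and without replicate 1 the difference was called for 7, all more positive in ileum. Lymphoid follicle markers moved with this list: 7 of 8 fell in duodenum and 3 in ileum, and their summed level had medians of 34.8 and 6.1 CPM in duodenum and 38.7 and 14.2 CPM in ileum, convR to GF. Their part in the result was not tested. Of 15 macrophage and dendritic cell genes, 13 fell in duodenum, 14 in ileum and 4 fell further in ileum, among them Itgax, the integrin CD11c (-0.41 and -1.22), and Csf1r, the receptor for colony-stimulating factor 1 (-0.58 and -1.26). Their summed level had medians of 436 and 268 CPM in duodenum and 351 and 184 CPM in ileum, convR to GF.

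Antigen presentation genes also fell further in ileum. MHC class II molecules present peptides to CD4 T cells, and Cd74 is their invariant chain. Cd74 was at 434, 610 and 1500 CPM in convR duodenum and 177, 231 and 402 CPM in GF duodenum, and at 1090, 1430 and 1890 CPM in convR ileum and 65.9, 101 and 145 CPM in GF ileum, with no overlap in either tissue. The convR level was higher in ileum and the GF level lower there. The effects were -1.50 ± 0.17 and -3.69 ± 0.19 log2 (difference -2.19 ± 0.24, adjusted p = 5.49e-08). Of 11 class II genes 9 fell in duodenum (median -1.36), 10 in ileum (median -3.12) and 7 fell further in ileum, among them Ciita, the class II transactivator (-1.03 and -3.10), and H2-Eb1 (-1.14 and -3.12). Without the libraries that stood apart, 7 fell in duodenum, 10 in ileum and 7 differed.

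Of 16 class I and immunoproteasome genes, 2 rose and 5 fell in duodenum (median -0.147), near the shares of all genes (22.9% and 25.2%). In ileum 13 fell (median -0.666), against 20.6% of all genes, and the difference was more negative in ileum for 13. The class I heavy chain H2-K1 and its partner B2m were at 0.10 and 0.07 in duodenum, neither called, and at -0.42 and -0.67 in ileum. Nlrc5, the class I transactivator, fell in both (-0.81 and -2.94), as did the immunoproteasome subunit Psmb8 (-0.40 and -2.57, duodenal adjusted p = 0.047). Leaving out the libraries that stood apart, none rose and 1 fell in duodenum, 13 fell in ileum and 8 differed.

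Interferon-induced GTPases and guanylate-binding proteins, which act against intracellular pathogens, showed the same order. Of 13, 10 fell in duodenum (median -0.556), 13 in ileum (median -1.72) and 12 fell further in ileum (9 without the libraries that stood apart). Gbp8 was at 28.4, 43.7 and 61.3 CPM in convR duodenum and 22.3, 27.3 and 35.6 CPM in GF duodenum, and at 30.7, 38.2 and 64.3 CPM in convR ileum and 7.56, 10.7 and 13.4 CPM in GF ileum. The ileal groups were apart, and the effects were -0.55 ± 0.10 and -1.78 ± 0.10 log2 (difference -1.23 ± 0.14, adjusted p = 8.31e-08). Gbp7 was at -0.35 and -1.50. Igtp was at -0.34 in duodenum (adjusted p = 0.339) and -2.58 in ileum, with 1 GF duodenum library at 153 CPM above all convR duodenum libraries. The annotated spans of Gbp4, Gbp8 and Gbp9 overlap, as do those of Igtp and Irgm2, so reads could be shared within these sets.

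The promoters of this family are shown because its members moved together in ileum. The 250 bases before the start (RefSeq, GRCm38) were searched on both strands for GAS, the interferon gamma element TTCNNNGAA, and for the core of ISRE, the interferon-stimulated element, written as GAAA, any 2 bases and GAAA again. Of 13 genes 8 had a promoter in the table. All 8 held the ISRE letters and 5 the GAS letters, against 3.46% and 8.13% of 27025 genes. Igtp and Irgm2 have annotated starts close together, and Tgtp1 and Tgtp2 are near copies, so these are fewer than 8 independent sequences. Capitals mark the matches, and GAS reads alike on both strands.
Gbp7 (chr3:142530086-142530335, plus strand): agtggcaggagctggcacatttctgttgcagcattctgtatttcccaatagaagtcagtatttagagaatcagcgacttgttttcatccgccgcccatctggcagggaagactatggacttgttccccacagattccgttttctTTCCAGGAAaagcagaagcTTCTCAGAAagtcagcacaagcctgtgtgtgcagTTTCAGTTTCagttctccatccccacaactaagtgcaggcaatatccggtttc
Igtp (chr11:58199306-58199555, plus strand): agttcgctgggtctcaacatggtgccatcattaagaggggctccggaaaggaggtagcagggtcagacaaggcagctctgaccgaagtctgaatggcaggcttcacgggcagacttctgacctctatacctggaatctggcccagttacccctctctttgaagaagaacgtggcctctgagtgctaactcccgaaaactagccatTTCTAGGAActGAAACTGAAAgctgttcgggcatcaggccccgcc
Gbp2 (chr3:142620413-142620662, plus strand): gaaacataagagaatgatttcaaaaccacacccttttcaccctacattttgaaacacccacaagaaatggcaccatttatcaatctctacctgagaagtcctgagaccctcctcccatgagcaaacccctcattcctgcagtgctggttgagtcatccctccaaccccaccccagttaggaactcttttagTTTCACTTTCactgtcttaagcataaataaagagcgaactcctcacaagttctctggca
Gbp7 held 2 GAS matches and 1 ISRE match, Igtp 1 of each and Gbp2 the ISRE match alone. Gbp2 had effects of -0.58 in duodenum and -1.11 in ileum. Of class I and immunoproteasome genes 12 had a promoter, with 3 ISRE and 1 GAS match, and of class II genes 8, with 1 of each. A match shows that the letters are present and not that a factor binds them.

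The type I interferon list moved less. Of 24 genes, 4 fell in duodenum (median -0.178), no larger a share than among all genes (25.2%). In ileum 1 rose and 13 fell (median -0.484), against 17.9% and 20.6% of all genes. The difference was more positive for 1 and more negative for 2, shares near those of all genes (4.58% and 7.69%). Irf9, a transcription factor of interferon signalling, was at 0.11 in duodenum, not called, and at -0.35 in ileum. Rsad2, the antiviral protein viperin, was at -0.41, not called, and 0.70. No gene of the list differed without the libraries that stood apart.

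Epithelial defence genes split by tissue. Pigr carries immunoglobulin A across the epithelium (chr1:130826684-130852249, plus strand). It was at 3980, 5060 and 6430 CPM in convR duodenum and 2880, 3540 and 5230 CPM in GF duodenum, with overlap. Its ileal levels were 2030, 2290 and 3200 CPM against 522, 664 and 771 CPM, with none. The effects were -0.36 ± 0.08 and -1.89 ± 0.09 log2 (difference -1.53 ± 0.12, adjusted p = 1.9e-11). Dmbt1, a secreted bacteria-binding glycoprotein, likewise fell further in ileum (-0.75 and -2.20), and so did the acute-phase protein Saa1 (-1.27 and -4.96) and Ceacam10 (-4.36 and -6.48).

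Another 4 of the 19 antimicrobial and microbe-response genes lost more in duodenum. Reg3g, a lectin that kills Gram-positive bacteria (chr6:78466269-78468872, minus strand), was at 259, 808 and 3050 CPM in convR duodenum and 15.3, 17.3 and 69.0 CPM in GF duodenum. In ileum it was at 1360, 2020 and 3530 CPM in convR and 84.6, 317 and 447 CPM in GF. The groups did not overlap in either tissue, and the convR duodenum libraries spread widely. The effects were -5.54 ± 0.39 and -2.92 ± 0.36 log2 (difference 2.62 ± 0.47, adjusted p = 0.000223). Reg3b was at -4.81 and -2.64.

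Duox2, a hydrogen peroxide-producing oxidase, was at 8.9958, 50.1 and 347 CPM in convR duodenum and at 0.711, 1.29 and 2.97 CPM in GF duodenum, and at 183, 315 and 635 CPM in convR ileum and 44.6, 56.5 and 97.8 CPM in GF ileum. The effects were -5.31 ± 0.44 and -2.40 ± 0.37 log2 (difference 2.91 ± 0.54, adjusted p = 0.000337). Nos2, the inducible nitric oxide synthase, was at -6.77 ± 0.70 and -3.48 ± 0.50 (difference 3.29 ± 0.87, adjusted p = 0.00927), with a convR duodenum range of 2.30 to 695 CPM. Mptx2, a pentraxin of Paneth cells, was at -4.83 and -2.58. The differences of Nos2 and Mptx2 were not called without the libraries that stood apart, and those of Reg3g and Duox2 were. All told, 2 antimicrobial genes rose and 13 fell in duodenum (median -1.27), 1 rose and 14 fell in ileum (median -2.2), and without the libraries that stood apart the difference was called more positive in ileum for 2 and more negative for 5.

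Slc5a8, a sodium-coupled transporter of short-chain fatty acids and lactate, had the largest difference of the named genes (chr10:88885992-88929515, plus strand). It was at 0.582, 4.18 and 19.5 CPM in convR duodenum and at 0.0262, 0.135 and 0.376 CPM in GF duodenum, the latter a few reads per library. Its ileal levels were 257, 333 and 461 CPM in convR and 217, 280 and 399 CPM in GF, with overlap. The effects were -5.57 ± 0.54 log2 in duodenum (adjusted p = 3.99e-10) and -0.12 in ileum (95% interval -0.797 to 0.553), a difference of 5.44 ± 0.66 (adjusted p = 3.6e-07). The ileal interval was too wide for the duodenum-only class. Zmat4, a zinc finger gene, rose in both tissues, by 3.001 ± 0.18 in duodenum (median 1.89 to 13.3 CPM, no overlap) and 0.71 ± 0.18 in ileum. Muc3, a membrane mucin, also rose more in duodenum (1.96 and 0.61), a difference that was not called without the libraries that stood apart.

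**Figure D4:**
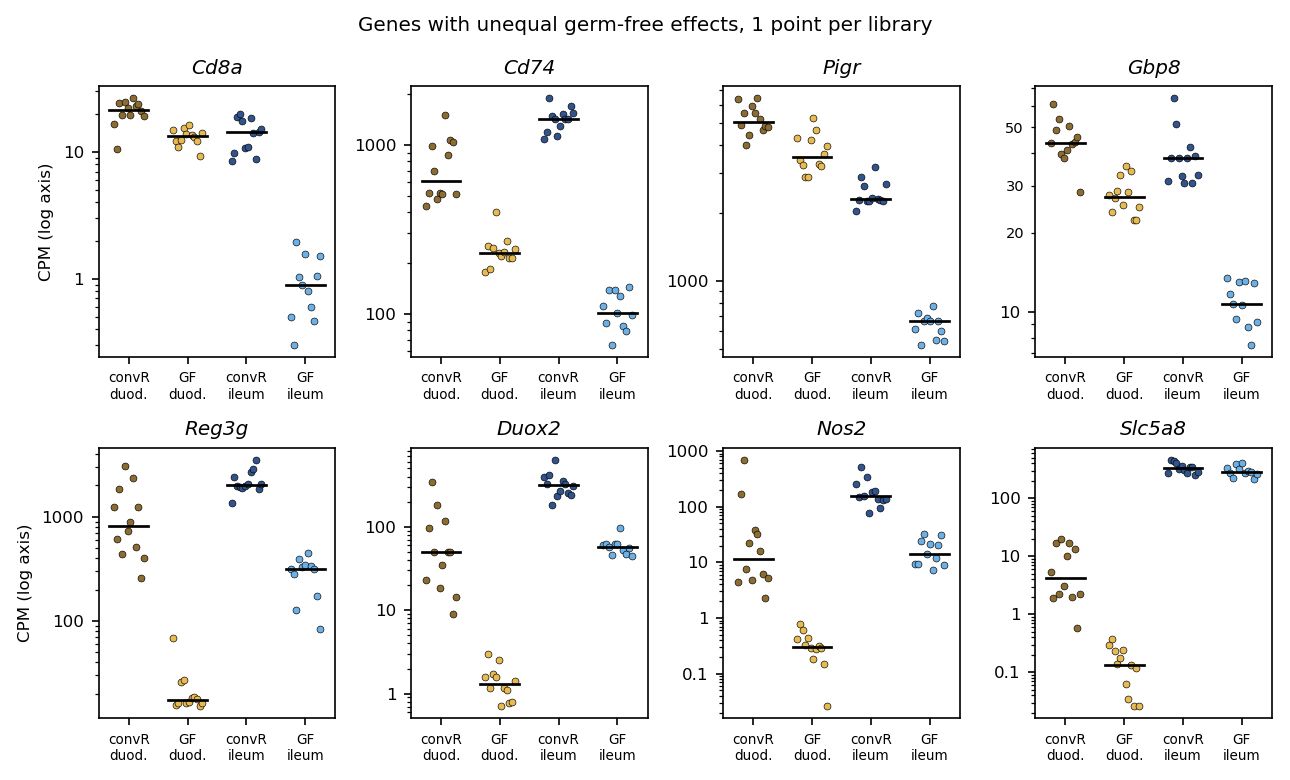
CPM (log axis) of 8 genes with unequal germ-free effects, with 1 point per library and a bar at the group median. In the upper row the fall is larger in ileum, as for Cd8a with medians of 14.2 and 0.900 CPM there against 21.6 and 13.3 CPM in duodenum. In the lower row it is larger in duodenum, as for Reg3g with 808 and 17.3 CPM against 2020 and 317 CPM in ileum.

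Lipid synthesis genes rose more often in ileum. Of 25 cholesterol synthesis and sterol-regulated genes, 8 rose and 1 fell in duodenum (median 0.117, and -0.01 with library-size scaling), 24 rose and none fell in ileum (median 0.515), and the difference was more positive in ileum for 9. Lss, lanosterol synthase, was at 46.2, 69.8 and 85.0 CPM in convR ileum and 68.3, 114 and 180 CPM in GF ileum, with overlap, and rose by 0.85 ± 0.11 log2 (adjusted p = 7.36e-08). In duodenum its medians were 31.1 and 33.2 CPM (0.17, adjusted p = 0.212). Cyp51, the next enzyme of the pathway, was at -0.09 in duodenum and 0.64 in ileum. After the libraries that stood apart were left out, 8 rose in duodenum and 25 in ileum, and 4 differed.

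Of 16 fatty acid synthesis genes 3 rose and 4 fell in duodenum (median -0.0821), near the shares of all genes (22.9% and 25.2%). In ileum 8 rose and 1 fell (median 0.359), against 17.9% and 20.6% of all genes. The difference was called for 5, all more positive in ileum (4 without the libraries that stood apart). Beside Elovl5 and Fads2 these were Scd2, a stearoyl-CoA desaturase (-0.41, adjusted p = 0.088, and 0.88), Acaca, acetyl-CoA carboxylase (-0.03 and 0.39), and Acss2, acetyl-CoA synthetase (0.18 and 0.48). In contrast, 17 of 26 genes of PPAR alpha and fatty acid oxidation rose in duodenum and 12 in ileum, and the 6 that differed were all more positive in duodenum. Ucp2, a mitochondrial carrier, went from a median of 242 to 656 CPM in duodenum (1.40 ± 0.10) and from 158 to 222 CPM in ileum (0.50 ± 0.11), a difference of -0.90 (adjusted p = 3.68e-05). With the libraries that stood apart left out, 1 of these 6 differences was called.

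Of 26 genes of fat absorption, 2 differed, both more negative in ileum, which is no larger a share than among all genes (7.69%). Cd36, a fatty acid receptor, was at 57.2, 77.9 and 107 CPM in convR duodenum and 108, 202 and 301 CPM in GF duodenum, with no overlap, and at medians of 27.7 and 29.9 CPM in ileum. It rose by 1.53 ± 0.21 log2 in duodenum and was at -0.08 in ileum (difference -1.61 ± 0.30, adjusted p = 0.000338). Dgat2, which makes triglyceride, was at 0.73 and -0.22. In the list 9 rose and 1 fell in duodenum and 6 rose in ileum, against 22.9%, 25.2% and 17.9% of all genes.

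Cytochrome P450 and metal-handling genes were mixed. Of 26 P450 and drug metabolism genes 13 rose and 3 fell in duodenum, against 22.9% and 25.2% of all genes. In ileum 10 rose and 7 fell, against 17.9% and 20.6%. The difference was more negative in ileum for 6 and more positive for 1 (3 and 1 without the libraries that stood apart). Over all genes 7.69% were more negative and 4.58% more positive. Cyp3a11, the main intestinal P450, had medians of 1470 and 1800 CPM in duodenum (0.36, adjusted p = 0.367) and of 265 and 69.8 CPM in ileum (-1.39, adjusted p = 0.00131). Cyp2c29 went from 12.8 to 208 CPM in duodenum (3.87) and was near 1 CPM in ileum. Of 25 genes of iron, zinc, calcium and retinoid handling, 4 were more positive and 4 more negative in ileum (2 and 1 without the libraries that stood apart). Their errors could be wide: Cybrd1, a ferric reductase, was at 1.93 ± 0.62 in duodenum and -0.76 ± 0.61 in ileum (adjusted p = 0.037 for the difference), a call that was lost without any 1 of 13 libraries and without those that stood apart. Slc34a2, a phosphate transporter, was at -2.38 in duodenum and 0.17 in ileum, and Slc11a2, the divalent metal transporter, at 1.73 and 0.13.

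Stem cell genes were called lower mostly in duodenum. Of 15 stem cell genes 2 rose and 9 fell in duodenum (median -0.23), against 22.9% and 25.2% of all genes. In ileum 2 rose and 2 fell (median 0.03, and -0.03 with library-size scaling), no larger shares than among all genes (17.9% and 20.6%). The difference was more positive in ileum for 7 (2 without the libraries that stood apart). Lgr5, the receptor that marks crypt base stem cells, was at -0.65 in duodenum (adjusted p = 1.72e-06) and -0.13 in ileum, and Tnfrsf19 at -0.64 and -0.18. Of 19 unfolded protein response genes, 14 fell in duodenum and 10 in ileum, and 5 fell further in duodenum (13 without the libraries that stood apart). These included Xbp1, a transcription factor of secretory cells (-0.59 and -0.26), and the chaperone Hsp90b1 (-0.67 and -0.26). Of 14 Paneth cell genes 12 fell in duodenum and 13 in ileum, and 3 fell further in duodenum, among them Mmp7, which processes defensins (-1.88 and -0.94), though only 1 differed without the libraries that stood apart.

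Tissue composition markers moved with these effects. Of 12 smooth muscle genes, 1 rose in duodenum and 10 in ileum, and 4 differed (none without the libraries that stood apart). Their summed level was 1190 to 2700 CPM in convR and 1180 to 1630 CPM in GF duodenum, and 2310 to 3580 CPM in convR and 3040 to 4380 CPM in GF ileum. Actg2, gamma smooth muscle actin, was at 0.36 and 0.96. Of 14 stromal and endothelial genes, 4 fell in duodenum, near the share of all genes (25.2%), and 10 in ileum (20.6%). The effect was more negative in ileum for 5 (3 without the libraries that stood apart). Among them was the endothelial receptor Kdr (0.12, not called, and -0.58). This contrast depended on the scaling: with library size alone 10 fell in duodenum and 11 in ileum, and 1 differed. Of 11 pancreas acinar genes 1 rose in duodenum and none passed in ileum, but the duodenal result was unstable: DESeq2 called 9 lower, 10 were lower without replicate 1, with 2 called differences, and the median was 6.29 without replicate 2. Summed over the 12 listed genes, the levels were 516 to 12000 CPM in duodenum and at most 8.75 CPM in ileum. None of these markers was at 0 in all libraries of a group. The sum includes Reg1, an antimicrobial lectin. Without Reg1 the mean level per gene was 0.3548 to 779.1 CPM in duodenum and 0.2737 to 0.5433 CPM in ileum. The part of tissue composition in the differences above was not tested.

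**Figure D5:**
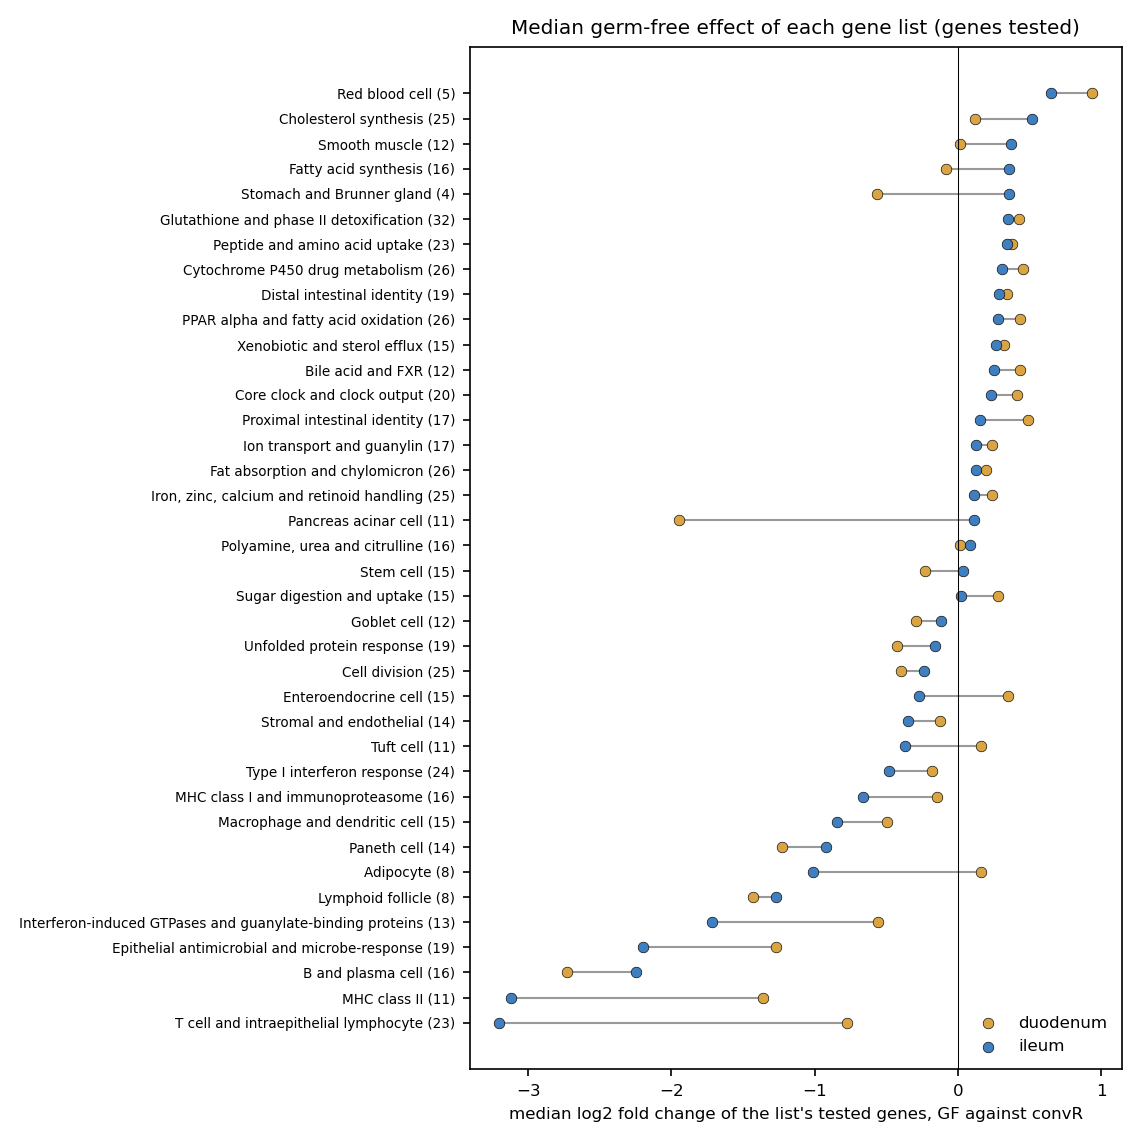
Median log2 fold change of GF against convR over the tested genes of 38 lists in duodenum and ileum, sorted by the ileal median, with the number of genes tested in brackets. The widest gaps with a lower ileal value include T cell genes (-0.771 and -3.2) and MHC class II (-1.36 and -3.12), and enteroendocrine genes lie on both sides of 0 (0.348 and -0.271). The pancreas list has a wide gap without a called difference, and its duodenal median of -1.95 turns to 0.837 without the time term.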

How the data were processed

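Total RNA was made into ribosome-depleted, strand-marking libraries (250 ng input, 12 PCR cycles) and sequenced as paired 100-base reads, per the labels' protocols. Reads were aligned with STAR 2.4.0i to mm10, per the submitters' processing notes. The deposited values are raw read counts per gene over exons, not normalized by the authors. No source used here names the counting program, its annotation or its use of strand, so overlapping, antisense and near-copy genes are uncertain. Of 38087 gene identifiers, 36308 were matched to GENCODE M21 for names and positions.

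Counts were tested with edgeR 4.0.16 (R 4.3.3) by its quasi-likelihood test on 19000 genes that passed filterByExpr (minimum count 10), with TMM scaling over all 47 libraries. Each tissue and time had its own intercept, each tissue its own germ-free effect, and the difference is the ileal minus the duodenal effect. P-values were adjusted by Benjamini-Hochberg over all genes at 5%, errors are standard errors of log2 effects, and every adjusted p in the text comes from this fit. Library totals ranged from 22546800 to 41911085 counts. No 2 replicate libraries of a group and time agreed within counting noise (chi-square per degree of freedom 22.8 to 207 over 23 pairs), so none was treated as 1 library deposited again, which does not show that they came from separate mice. In simulated counts over 19000 genes, the tissue difference was called for 87% of 100 genes changed by 1 log2 in ileum. It was called for 85% of 100 genes changed by 0.5 log2 in opposite directions, and there were 14 false calls. The other genes were simulated without a germ-free effect, and calls in each tissue were not scored. These shares therefore do not give the recovery of the opposite class.

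Genes were named by rule. Per direction, these were the 8 opposite genes with the largest smaller effect and their sign at 5 or more of 6 times. Per tissue and direction, they were the 5 one-tissue genes with the largest effect, among those with their sign at 6 of 6 times there. Per tissue, the 4 same-direction genes with the largest difference were named. For each of 38 gene lists, up to 2 members with the smallest p for the difference were added. Except for list members, predicted genes, pseudogenes, small RNAs, immunoglobulin and T cell receptor segments and genes below a mean of 2 CPM in either tissue were passed over. A few genes that the rule names are not reported here. Genes outside this rule were chosen after their values were seen. The genes and lists were chosen with earlier results of these data known. Libraries stood apart where the mean of the pancreas markers other than Reg1, or of the stomach markers, exceeded 100 CPM. A TMM factor above 1.2 or ileal Fabp6 below 1000 CPM also set a library apart. Alternatives were library-size scaling, RLE, DESeq2 1.42.0, other filters, thresholds and time terms, replicate blocks, and leaving out libraries, replicates or times. Promoters are from RefSeq GRCm38.p6.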

Additional observations from a re-analysis of the deposited data

Results flagged for a closer look

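Each gene below had a germ-free effect that differed between ileum and duodenum by the test of the difference itself (edgeR, adjusted p below 5% over all 19000 genes). Values are the ileal minus the duodenal log2 effect.

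Among genes higher in GF duodenum and lower in GF ileum, the difference was -2.02 for Slc46a1, -1.53 for H2-M2, -1.50 for Sst, -1.40 for Abtb2, -1.27 for Ifnar2, -1.11 for Zfp385b, -1.08 for Lama1, -0.99 for Xdh, -0.96 for Slc39a4, -0.91 for Sh2d6, -0.84 for Chga and -0.46 for Plin2. For genes lower in GF duodenum and higher in GF ileum it was 0.69 for Fads2, 0.71 for Casq2, 0.74 for Hs3st1, 0.76 for Elovl5, 0.87 for Mvd, 1.10 for Eml6, 1.26 for Abca8b, 1.39 for Cyp4f16 and 1.87 for Atg16l2. Genes that responded in ileum only gave -2.23 for Il2rb, -1.65 for Tap1, -1.52 for Cyp3a25, -1.15 for Myl7, -1.15 for Il18rap, 0.98 for Tfrc, 1.06 for Nrn1 and 1.23 for H2-Q10. Genes that responded in duodenum only gave -1.51 for Chrm3, -1.44 for Cyp2j9, -1.09 for Pde8a, -1.04 for Rnf144b, -0.97 for Npr3, 0.87 for Capn5, 1.004 for Ocm, 1.35 for Tram2 and 1.63 for Mboat1.

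Genes with a larger effect of the same sign in ileum gave -3.29 for Gzma, -3.23 for Cd8a, -2.89 for Cd7, -2.66 for Ccl5, -2.19 for Cd74, -2.17 for Psmb8, -1.98 for H2-Eb1, -1.53 for Pigr, -1.44 for Dmbt1, -1.43 for Psmb9, -1.23 for Gbp8 and -1.15 for Gbp7. Those with a larger effect of the same sign in duodenum gave -2.29 for Zmat4, -1.35 for Muc3, 2.24 for Mptx2, 2.62 for Reg3g, 2.90 for Duox2 and 3.29 for Nos2. Of the other list members that differed, those more negative in ileum gave -2.69 for Cybrd1, -2.03 for Slc2a2, -2.004 for Lep, -1.61 for Cd36, -0.99 for Ces2a, -0.96 for Igha, -0.95 for Dgat2, -0.90 for Ucp2, -0.81 for Itgax, -0.76 for Abcc6, -0.73 for Siglecf, -0.70 for Kdr, -0.70 for Slc47a1, -0.69 for Csf1r, -0.49 for Sis, -0.48 for Gata6, -0.46 for Irf9, -0.38 for Cdh5 and -0.21 for Clock. Those more positive in ileum gave 0.31 for Bub1, 0.33 for Xbp1, 0.38 for Tpm2, 0.40 for Ccnd2, 0.41 for Hsp90b1, 0.44 for Slc12a2, 0.46 for Tnfrsf19, 0.60 for Actg2, 0.68 for Lss, 0.79 for Pycr1, 0.94 for Mmp7 and 5.44 for Slc5a8. The differences of Cybrd1, Sis, Ces2a and Lep lay near the threshold (adjusted p = 0.037, 0.0433, 0.0396 and 0.0397). Each lost its call without any 1 of many libraries, which came from more than 1 group, and kept its sign. Over the 47 omissions of a single library, the call was kept in 15 for Sis, 24 for Lep and 34 for Cybrd1. Slc2a2 lost its call without the second convR ileum library at ZT 6 (-1.75, adjusted p = 0.0542).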

How the results depend on the processing

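No difference between the tissues of the 90 genes named by rule changed sign under any alternative. By count, all 90 stayed called with RLE size factors, DESeq2 or the replicate block within each tissue, 88 with the animal block across tissues, 85 with scaling by library size alone, 70 without the libraries that stood apart, 72 without replicate 1 and 36 without replicate 2. Opposite genes numbered 127 with no low-count filter, 133 without ZT 2, 120 without ZT 10, 133 without ZT 14, 116 without ZT 18, 57 at an adjusted p of 1%, and 19 with at least 0.5 log2 in both tissues. Genes that differed numbered 1541 without the libraries that stood apart, 1423 without ZT 10, 1427 without ZT 18 and 1143 at 1%. Same-direction genes larger in ileum were 91 without the libraries that stood apart, and those larger in duodenum 11 without ZT 6 and 9 at 1%. One-tissue genes were 8 in duodenum without ZT 6, 4 in ileum and 2 in duodenum with the other tissue's interval within -0.3 to 0.3, 168 and 60 within -1 to 1, and 10 and 11 with at least 5 CPM.

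Leaving out replicate 1 or replicate 2 throughout leaves at most 1 library per group and time. These left 1136 and 409 genes that differed, 83 and 33 opposite, 23 and 17 ileum-only, 15 and 5 duodenum-only, 95 and 75 same-direction genes larger in ileum and 14 and 2 larger in duodenum, with 7513 and 5715 calls in duodenum and 5855 and 3815 in ileum. Leaving out each of the 47 libraries in turn gave 1996 to 2516 genes that differed, 171 to 232 opposite, 11 to 20 ileum-only, 13 to 20 duodenum-only, 144 to 178 and 16 to 26 same-direction genes, and 8632 to 9451 and 6697 to 7854 calls, and no single library moved any of these counts by over 1.5 times.

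Replicate numbers were not taken as pairs: the labels do not say what a number shares, and the deviations of same-numbered libraries correlated at 0.254 to 0.618 between the tissues of convR mice but at -0.0439 to 0.155 in GF mice, at -0.0705 to 0.296 between convR and GF duodenum and at -0.0424 to 0.391 in ileum. With the replicate number as a block in each tissue, 2654 genes differed, 233 were opposite, 18 and 17 responded in ileum and in duodenum only, and 9606 and 7824 were called in duodenum and ileum. With number as an animal block across tissues 2847 differed, and the differences of Slc47a1 (-0.70, adjusted p = 0.0526) and Cybrd1 (-2.68, adjusted p = 0.0614) were no longer called. The cause of these shifts was not tested.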

Other observations

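Sucnr1, the succinate receptor of tuft cells, had an opposite effect (0.75 in duodenum and -0.62 in ileum), and of 11 tuft cell genes 2 rose in duodenum (22.9% of all genes did) and 1 rose and 4 fell in ileum. The difference was more negative in ileum for 3 tuft cell genes, for 2 without the libraries that stood apart and for none without replicate 1. Genes of red blood cells rose in both tissues, 5 of 5 in duodenum and 3 of 5 in ileum, and none differed between them. Of 23 genes of peptide and amino acid uptake, 13 rose in duodenum and 14 in ileum, and of 32 of glutathione and phase II detoxification 20 and 17 rose, with 0 and 1 genes that differed between the tissues.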
